A study of Mus musculus with 2 samples.

Results

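Cycling keratinocytes are the skin epithelial cells that were replicating their DNA or dividing when the tissue was taken. They were selected on measured values: a cell was a cycling keratinocyte when it held at least 20 unique molecular identifiers (UMIs, each 1 counted mRNA molecule) of Krt5 and Krt14 summed, and at least 3 UMIs of Top2a, Cdk1, Ube2c and Birc5 summed. Krt5 and Krt14 encode the keratins of basal epithelial cells. By this rule 266 of 5868 keratinocytes, and of 7564 cells kept in all, were cycling, with 165 in the control and 101 in the induced library.

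The study profiled back skin of 1 control mouse and 1 mouse with inducible miR-205 by single-cell RNA-seq, with 1 10x Genomics library each, processed on 1 chip. Both mice were gender matched, of strain C57BL/6, carried the K14-H2BGFP allele, a nuclear green reporter in keratin 14 cells, and were taken at postnatal day 53. The induced mouse also carried pTRE2-miR-205, made by injection into FVB mice, and Krt14-rtTA, so that doxycycline chow, given for 4 days from postnatal day 49, was to raise miR-205 in keratin 14 cells. The extraction notes say that both mice ate doxycycline, whereas the control's characteristics read untreated, and sorting by surface proteins plus the reporter mixed them so that epidermal, follicle and dermal cells stood at 3:5:2.

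With 1 library a group there was no replicate check, no test of the induction and no measure of the spread between mice. Every interval below is at 95% and covers counting error only. The libraries held 55465594 and 49733560 UMIs, and none of the 11 barcodes they shared was a cycling keratinocyte. Mature microRNA is not counted in such libraries, so they hold no direct check of the induction. The transcript from the miR-205 locus, Mir205hg (4631405K08Rik), had 435 UMIs in control and 187 in induced cycling keratinocytes, a log2 ratio of −0.56 (−0.81 to −0.31), beside 0.14 (0.08 to 0.20) in other keratinocytes. Its interval held 0 in cycling cells with at least 5 marker UMIs (−0.26, −0.54 to 0.02) and in those under 5% mitochondrial UMIs (−0.28, −0.66 to 0.08). The files do not list the transgene's transcript apart from it.

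A cell entering division first turns on genes for DNA synthesis, driven by E2F factors, in S phase, and makes the histones that package the new DNA. Genes for the spindle, chromosome condensation and cytokinesis follow in G2 and M phase, through the DREAM and MuvB-B-Myb complexes at an element called the CHR and NF-Y at CCAAT boxes. In resting skin the dividing keratinocytes sit mainly in the basal layer of the epidermis and upper follicle, while stem cells of the follicle bulge rarely divide and cells that leave the basal layer stop dividing and turn on Krt1 and Krt10.

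The mature miR-205 is shown with its seed, bases 2 to 8, in capitals, because this is the molecule the design induces. The 22 bases of this mature sequence lie at chr1:193507503-193507524 on the minus strand of GRCm38.p6, from RefSeq.
mmu-miR-205-5p: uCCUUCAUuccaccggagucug

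The promoters of the 4 genes that define a cycling keratinocyte are shown because motifs of the late cell cycle stand in 3 of them. Each runs from 150 bases before to 50 bases after the RefSeq start on GRCm38.p6, 5′ to 3′ on the gene's strand, with matches on either strand in capitals. The letters searched were TTTGAA or TTCGAA for the CHR, CCAAT for the CCAAT box, and TTTCCCGC, TTTCGCGC, TTTGCCGC or TTTGGCGC for an E2F-type site. They are Top2a at chr11:99024140-99024339 (minus), Cdk1 at chr10:69352863-69353062 (minus), Ube2c at chr2:164769779-164769978 (plus) and Birc5 at chr11:117849087-117849286 (plus).
Top2a: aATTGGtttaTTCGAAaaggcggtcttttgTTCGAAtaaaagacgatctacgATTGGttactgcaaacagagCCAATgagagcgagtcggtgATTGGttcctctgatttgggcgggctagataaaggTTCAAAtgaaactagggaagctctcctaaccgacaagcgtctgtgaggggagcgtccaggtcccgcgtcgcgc
Cdk1: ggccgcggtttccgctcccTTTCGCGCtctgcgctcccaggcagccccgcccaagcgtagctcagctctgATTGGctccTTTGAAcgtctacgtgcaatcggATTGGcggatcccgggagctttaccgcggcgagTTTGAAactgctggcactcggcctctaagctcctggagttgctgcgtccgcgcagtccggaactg
Ube2c: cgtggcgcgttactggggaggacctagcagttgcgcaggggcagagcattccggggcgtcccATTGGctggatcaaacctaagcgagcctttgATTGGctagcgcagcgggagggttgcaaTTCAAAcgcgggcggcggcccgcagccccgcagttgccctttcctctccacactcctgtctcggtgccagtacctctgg
Birc5: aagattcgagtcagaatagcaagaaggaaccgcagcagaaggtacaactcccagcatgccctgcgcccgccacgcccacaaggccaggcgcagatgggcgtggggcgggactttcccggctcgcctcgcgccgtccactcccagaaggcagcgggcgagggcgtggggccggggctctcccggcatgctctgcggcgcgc

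The CHR letters nearest the start began at −23 in Top2a, −15 in Cdk1 and −29 in Ube2c, each with CCAAT boxes further upstream. The Birc5 window held none of these letters. Over whole windows of 300 bases, CHR letters stood in 29 of the 36 promoters matched among 45 genes of a G2 and M list (80.6%), in 5 of 26 matched among 36 genes of an S list (19.2%), and in 19.4% of 27025 promoters. CCAAT boxes stood in 80.6% of the G2 and M promoters, 61.5% of the S promoters and 37.9% of all promoters. E2F-type letters were at 0 of the 36 G2 and M promoters, 10 of the 26 S promoters (38.5%) and 2.32% of all promoters. Of the 12 genes highest over other keratinocytes, named below, 9 had a matched promoter. Of these 9, CHR letters stood in 6 (66.7%), CCAAT boxes in 2 (22.2%) and E2F-type letters in 1 (11.1%). A match is a description of these letters and not evidence of binding.

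Cycling keratinocytes made up a smaller share of the induced library. They were 165 of 3186 control keratinocytes (5.18%, exact Clopper-Pearson interval 4.44 to 6.01) and 101 of 2682 induced keratinocytes (3.77%, 3.08 to 4.56), a difference of −1.41 percentage points (−2.49 to −0.33). Of all kept cells they were 4.19% and 2.78%. Since the rule counts raw UMIs, it was repeated on cells thinned to 5000 UMIs, which gave 112 of 3107 control (3.60%) and 68 of 2615 induced keratinocytes (2.60%), a difference of −1.0 points (−1.92 to −0.08). The interval of the difference held 0 when only cells under 5% mitochondrial UMIs were kept (−0.71, −2.35 to 0.98) and when no upper limit was set on genes (−1.14, −2.27 to 0.01). The mix set by the sort can move these shares, and its part in the difference was not tested.

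Cells outside the limits on genes and mitochondrial UMIs were not counted, and dividing cells were common among the largest. Of keratinocyte barcodes left out at 5000 genes or more, 17 of 37 control and 22 of 45 induced ones met the marker rule. Of those left out at 10% mitochondrial UMIs or more, 13 of 276 and 8 of 215 did. Doublets were not removed, and these barcodes can also hold more than 1 cell.

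The 4 marker genes are given as a description only, since they chose the cells. Top2a, which untangles replicated DNA, was detected in 159 of the 165 control and 96 of the 101 induced cycling keratinocytes. Cdk1, the mitotic kinase, was found in 133 and 82, Ube2c, which tags cyclins for destruction, in 123 and 80, and Birc5, a subunit of the chromosomal passenger complex, in 126 and 78. All 4 were found together in 99 control (60%) and 65 induced cells (64.4%).

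Most members lay well inside the threshold. At least 10 marker UMIs were held by 111 control (67.3%) and 72 induced cells (71.3%). At least 50 were held by 25 control and 31 induced cells. Just inside the rule, with 3 marker UMIs, were 17 control and 12 induced cells, and just outside, with 2, were 52 and 36. The median count of G2 and M list UMIs, after thinning, was 9 and 6.5 in the former and 5.5 and 5 in the latter, whereas cells with 5 to 9 marker UMIs had medians of 19.5 and 16. Keratinocytes with 0 marker UMIs had a median of 5 in both libraries, so the cells just inside the rule held few more of these UMIs than cells without any marker.

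**Figure D1:**
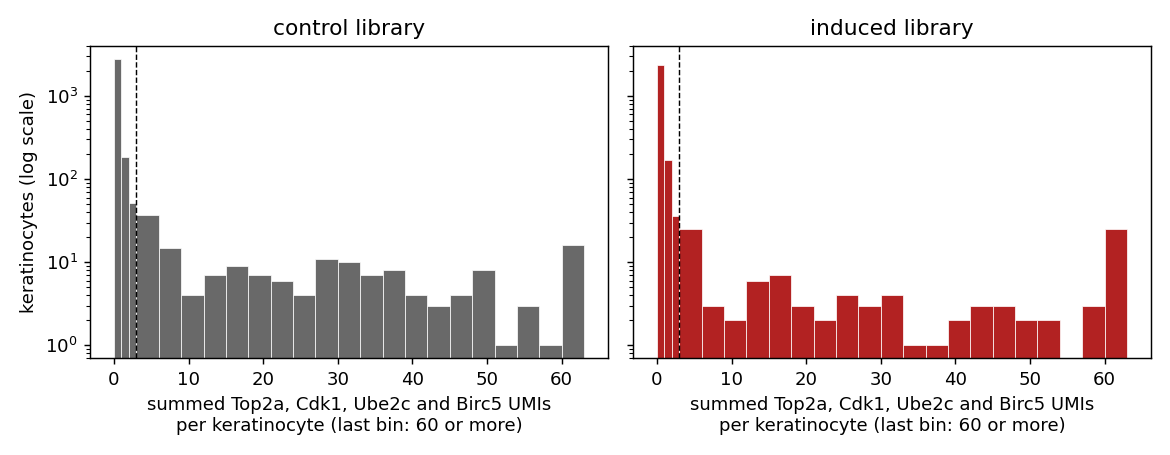
Summed Top2a, Cdk1, Ube2c and Birc5 UMIs per keratinocyte (x axis) against the number of keratinocytes on a log scale (y axis) in each library, in bins of 1 UMI below 3 and of 3 UMIs above. The dashed line is the threshold of 3 UMIs, and 2784 control and 2375 induced keratinocytes held none.

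Cycling keratinocytes were deeper than the rest, with a median of 20918 UMIs in control and 22155 in induced cells, beside 12380 and 12511 in other keratinocytes. Their median number of genes was 4131 and 4224, beside 2832 and 2857. Free RNA as a source of marker UMIs was gauged in keratinocytes with at least 3 Krt1 and Krt10 UMIs after thinning, which have left the cycle. At their full median depths of 17273 and 17078 UMIs, 14 of 249 control (5.62%) and 23 of 233 induced cells (9.87%) held any marker UMI. Within 5000 thinned UMIs 4 (1.61%) and 6 (2.58%) did. None held 3 at either depth, which allows a share of up to 1.20% and 1.29%.

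The cell cycle genes that the rule did not name followed the label in both libraries. Values here are CPM, the UMIs of a gene in summed cells per 1000000 UMIs, given as log2 ratios of cycling over other keratinocytes, and are a description, since a selected set against the rest is no test. Of 44 G2 and M genes with at least 50 UMIs, 43 were 2-fold or more higher in both libraries, where 7.62% of all 7574 such genes were, and the list median was 5.91 in control and 6.40 in induced cells. For all genes the median was 0.17 and 0.12.

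The genes highest over other keratinocytes encode the machinery of mitosis. They were ranked by the lower of their values in the libraries, among genes with at least 200 UMIs and outside the rule. Nusap1, a spindle microtubule bundler, came first on that measure, with log2 ratios of 8.78 in control (7.95 to 9.92) and 9.14 in induced cells (8.23 to 10.45), from 392 and 298 UMIs. Pbk, a mitotic kinase, stood at 8.26 and 9.71. The kinetochore genes Nuf2, Spc25 and Knl1 had log2 ratios of 7.71, 7.58 and 7.19 in control and 8.39, 8.86 and 7.68 in induced cells. The spindle motors Kif11 and Kif15 were at 7.35 and 7.62 in control and 7.53 and 8.21 in induced cells, and Ccna2, the cyclin of S and G2 phase, at 7.61 and 8.89. Iqgap3, Esco2, which acetylates cohesin, Cep55, which acts in abscission, and Melk completed the 12 highest genes.

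Genes of DNA synthesis had smaller ratios, in cells chosen by genes that act late in the cycle. Of 33 S genes, 29 were 2-fold or more higher in both libraries, with medians of 2.75 and 2.52. Pcna, the sliding clamp of DNA polymerase, was at 1.27 (1.15 to 1.39) and 1.06 (0.89 to 1.22), while Uhrf1, which guides maintenance methylation, was at 3.86 and 4.03. Of 9 replication-dependent histone genes, 7 passed 2-fold in both, with medians of 7.39 and 5.78. Of 15 chromatin and tubulin genes, 12 did, with medians of 2.24 and 2.22, and Stmn1, which destabilizes microtubules, was at 3.97 and 3.85.

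Genes of G1 control differed less, with medians of 0.81 and 0.54 over 13 genes and only 2 of them past 2-fold in both libraries, Rbl1, of the retinoblastoma family, and E2f1, named here after their values were seen. The CDK inhibitor Cdkn1a (p21) was slightly lower in cycling cells, at −0.37 (−0.45 to −0.30) in control and −0.67 (−0.77 to −0.57) in induced cells, and Ccnd2, a D-type cyclin, was at −0.72 and −0.50.

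Cycling keratinocytes were low in products of differentiation and in some markers of the bulge. Genes 2-fold or more lower in both libraries were 0.819% of all tested. Among them were all 3 suprabasal genes tested, Krt10 at −3.75 and −3.16, Sbsn at −2.39 and −2.60, and Krtdap at −3.42 and −4.00. Krt10 stood at 34.6 CPM in control and 55.1 CPM in induced cycling cells. The 8 lowest were ranked among genes with at least 200 UMIs and no more than 50% of them in 5 cells, which leaves out Krtdap, Cd34 and Krt79. They were Krt10 and Sbsn, followed by Cldn4, a tight junction gene, Krt6a, a keratin of the inner bulge, Ctsl, Chit1, Dapl1 and Defb1, these 6 between −1.28 and −1.84.

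Of 5 bulge genes, 2 were 2-fold or more lower in both libraries, Cd34 and Postn. Cd34, the surface marker of hair follicle stem cells, was at −2.72 (−3.24 to −2.27) in control and −2.55 in induced cells, Postn, a matrix protein, at −1.06 and −1.26, and Krt15, a keratin, at −0.42 and −0.44. The transcription factors Lhx2 and Sox9 were at −0.50 and −0.02 in control and −0.60 and −0.69 in induced cells. Timp3, a marker of the inner bulge and an inhibitor of metalloproteases, was higher in cycling cells, at 0.82 and 0.65. Of upper follicle markers Krt79, of the infundibulum and sebaceous duct, was at −3.00 and −2.79, while Krt17 was near 0 at −0.02 and −0.31. The basal epidermal markers were mixed, with Thbs1 at 0.08 and 0.35, Epgn at 0.16 and 0.84, and Igfbp3 at −1.23 and −2.46.

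**Figure D2:**
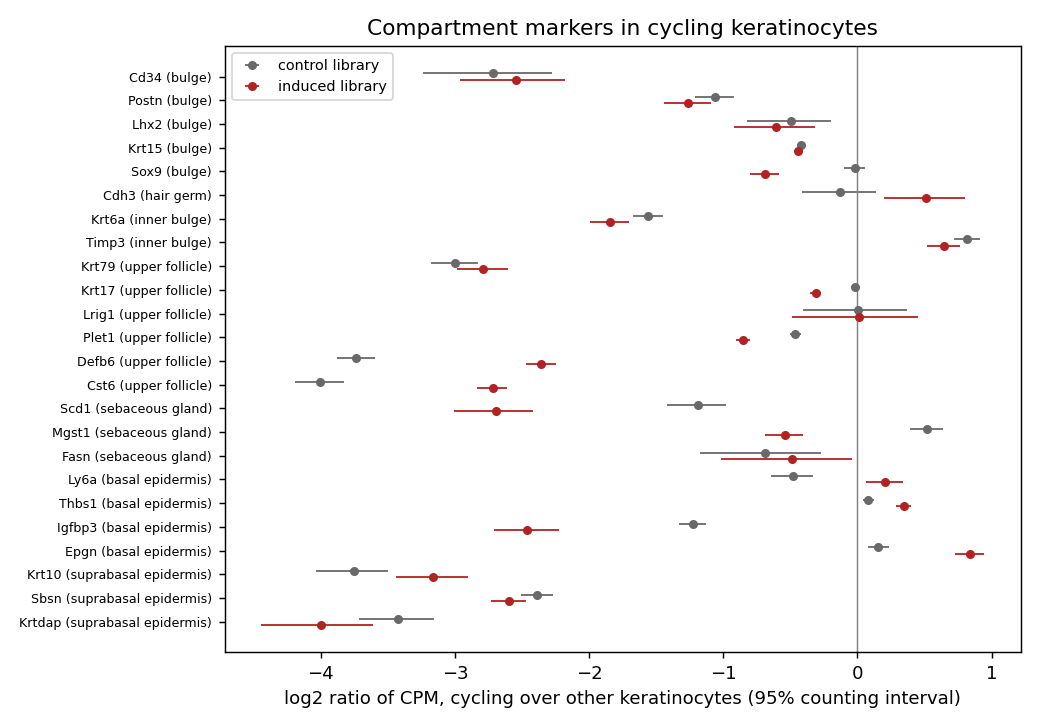
Log2 ratio of CPM in cycling over other keratinocytes (x axis, points with 95% counting intervals) for markers of skin compartments with at least 50 UMIs in cycling cells, in the control and induced library. Krt10, Sbsn, Krtdap, Krt79 and Cd34 lie below −2 in both libraries and Timp3 lies above 0 in both.

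Counted per cell after thinning, at least 3 UMIs of the basal epidermis list were found in 72.1% of control cycling keratinocytes, beside 63.4% of other keratinocytes, and in 62.9% beside 49.7% in the induced library. For the suprabasal list these shares were 15.2% beside 46.9%, and 21.6% beside 59.4%. The sebaceous gland list was met by 10.3% beside 5.13%, and by 12.4% beside 6.59%. Summed expression of that list went the other way. Its 3 genes with at least 50 UMIs had median log2 ratios, cycling over other keratinocytes, of −0.69 and −0.54. Of these genes, 1 was 2-fold or more lower in both libraries and 0 were higher by that limit. The hair germ list was met by 1 of 165 control cycling cells (0.61%) beside 2.99%, and by 4 of 97 induced ones (4.12%) beside 4.17%. The bulge list was met by 95.8% beside 94.3%, and by 95.9% beside 94.8%. Lists of the bulge and upper follicle were met by 88.7% or more of cycling keratinocytes in each library and did not separate them. Of these lists' genes, Krt15 alone was detected in 97.6% and Krt17 in 98.2% of control cycling cells.

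Read the other way, 5.39% (4.60 to 6.27) of control and 3.75% (3.04 to 4.57) of induced cells that met the bulge list were cycling, near the shares of all keratinocytes. The share was lower among cells with Cd34 and Krt24. Of keratinocytes with at least 3 thinned UMIs of Cd34 and Krt24, 2 of 312 control (0.641%, 0.078 to 2.30) and 2 of 490 induced cells (0.408%, 0.049 to 1.47) were cycling. With any UMI of Lgr5, a marker of the hair germ and lower bulge, 6 of 263 (2.28%) and 7 of 278 (2.52%) were. Of cells that met the hair germ list, 1 of 89 control (1.12%, 0.028 to 6.10) and 4 of 109 induced cells (3.67%, 1.01 to 9.13) were. Of cells with at least 3 UMIs of the basal epidermis list, 6.00% (4.99 to 7.13) and 4.65% (3.57 to 5.93) were, of the suprabasal list 1.78% and 1.38%, and of the sebaceous gland list 10.1% (6.01 to 15.7) and 6.74% (3.53 to 11.5). With at least 3 UMIs of Krt79, 6 of 359 and 3 of 325 were. The marker pairs and single genes of this paragraph were chosen after their values were seen.

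Among themselves the cycling keratinocytes varied in S and in G2 and M list UMIs. The rule chose them by genes that act late in the cycle, so it favors cells in G2 and M phase. The shares below therefore do not measure the phase makeup of all dividing keratinocytes. With marker genes left out and cells thinned to 5000 UMIs, S list UMIs per cell had a median of 8 in control (0 to 46) and 7 in induced cells (0 to 37), and G2 and M list UMIs a median of 31 (0 to 161) and 33 (0 to 150). Taking as high what lay above the 95th percentile of other keratinocytes, over 6 S and over 15 G2 and M UMIs, both lists were high in 78 of 165 control (47.3%) and 43 of 97 induced cells (44.3%). The G2 and M list alone was high in 50 (30.3%) and 28 (28.9%), the S list alone in 13 (7.88%) and 11 (11.3%), and neither in 24 and 15. These classes are ranges of a continuous measure, with 45 and 32 cells within 2 UMIs of a limit. Differences between libraries were within counting error, at −2.94 points for both (−15.8 to 10.1), −1.44 for G2 and M alone (−13.0 to 10.8) and 3.46 for S alone (−4.15 to 12.3). Among other keratinocytes, whose own 95th percentile set the limits, the S list alone was high in 124 control (4.21%) and 104 induced cells (4.13%).

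The summed histone list count per cell differed between libraries where the phase classes did not separate them. It is a sum over the list, and 5 of its 9 genes tested had ratio intervals that held 0. At least 3 thinned UMIs of the histone list were found in 80 of 165 control (48.5%, 40.6 to 56.4) and 23 of 97 induced cycling keratinocytes (23.7%, 15.7 to 33.4), a difference of −24.8 points (−36.0 to −12.3). In other keratinocytes the shares were 0.918% and 1.23%. The interval of the difference lay below 0 in 2 of the 4 phase classes. Where both lists were high, 61 of 78 control (78.2%) and 21 of 43 induced cells (48.8%) held 3 or more histone UMIs, a difference of −29.4 points (−47.1 to −10.3). Where the G2 and M list alone was high, 16 of 50 (32%) and 1 of 28 (3.57%) did, a difference of −28.4 points (−43.5 to −9.09). The classes with S alone or neither held 3 such cells in control and 1 in induced, with differences of 1.40 points (−28.3 to 34.4) and −8.33 points (−27.0 to 14.7).

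**Figure D3:**
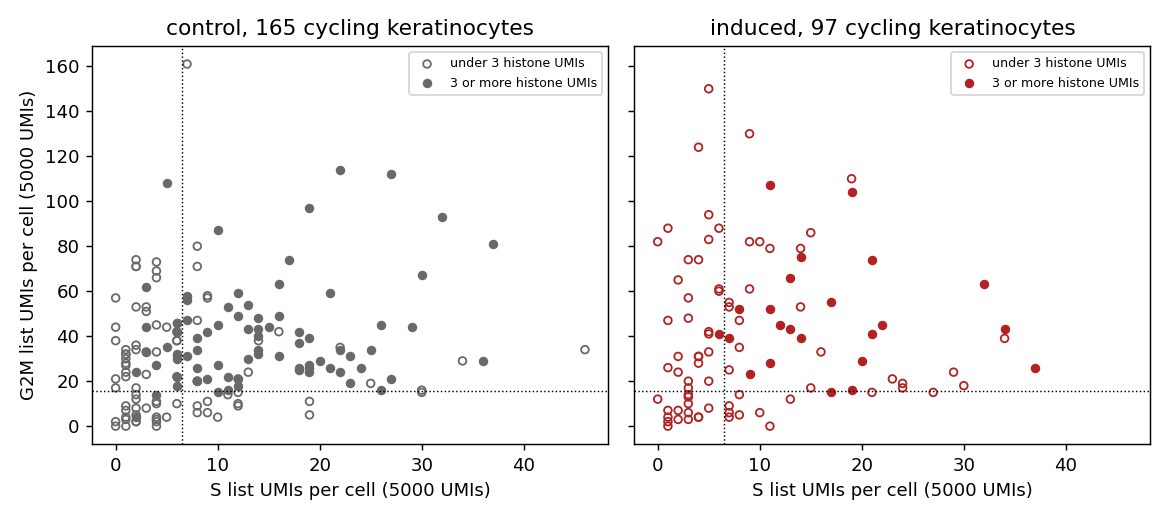
S list UMIs (x axis) against G2 and M list UMIs (y axis) per cycling keratinocyte after thinning to 5000 UMIs, in 165 control and 97 induced cells, with filled points for 3 or more histone UMIs. Dotted lines are the limits of 6 and 15 UMIs, and filled points are 80 in control and 23 in induced cells.

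Hist1h2ap, a histone H2A gene, had 1112 UMIs in control and 196 in induced cycling keratinocytes, 329 CPM (310 to 349) and 91.6 CPM (79.2 to 105), a log2 ratio of −1.84 (−2.07 to −1.63). It was detected in 56.4% of control and 35.6% of induced cycling cells. Hist1h2ae had 748 and 206 UMIs, a log2 ratio of −1.20 (−1.43 to −0.98). The linker histones Hist1h1b and Hist1h1e were at −0.45 (−0.75 to −0.16) and −0.32 (−0.74 to 0.09). Of the 9 histone genes 7 were below 0, where 53.3% of all genes tested were. Of the 9, 3 had an interval below 0, 1 had one above and 5 had one that held 0. The list median was −0.32, beside 0.56 in other keratinocytes. Libraries of this kind are primed on poly(A) tails, which most replication histone mRNAs lack, and genes of this family are near-identical in sequence, so that their single-gene values are uncertain.

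The medians of the S list and the G2 and M list stood on opposite sides of the median of all 7574 genes, which was −0.03. Among G2 and M genes 38 of 44 were higher in the induced library, where 46.7% of all genes tested were, with a median log2 ratio of 0.36. Of the 44, 26 had an interval above 0 and none had one below, where 10% and 13.1% of all genes tested did. In other keratinocytes the same list had a median of −0.15. Both groups of cells were formed by marker genes that act late in the cycle, so this contrast is a description. At least 50 marker UMIs were held by 25 of 165 control and 31 of 101 induced cycling cells. The part of this in the ratios of the list was not tested. Ccna2 went from 81.4 CPM (275 UMIs) to 144 CPM (308 UMIs), a log2 ratio of 0.82 (0.58 to 1.06). Ccnb1, the mitotic cyclin, went from 92.4 CPM (312 UMIs) to 158 CPM (339 UMIs), at 0.78 (0.55 to 1.00).

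Not all genes of division followed. Mki67, a coat protein of mitotic chromosomes, was at 259 and 268 CPM (876 and 573 UMIs), a log2 ratio of 0.05 (−0.11 to 0.20). Anln, of the cytokinetic ring, was at −0.03 (−0.19 to 0.14) and Lbr, of the nuclear envelope, at −0.16 (−0.40 to 0.08). Of the marker genes, which also chose the cells, Ube2c had 1259 control and 1260 induced UMIs (0.66, 0.55 to 0.77), Birc5 424 and 416 (0.63, 0.43 to 0.83), Cdk1 712 and 524 (0.22, 0.05 to 0.38), and Top2a 2009 and 1187 (−0.10, −0.20 to 0.00).

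Among S genes 23 of 33 were lower in the induced library, beside 53.3% of all genes tested, with a median of −0.18. Of the 33, 9 had an interval below 0 and none had one above, beside the 13.1% and 10% of all genes. Pcna went from 199 CPM (673 UMIs) to 163 CPM (348 UMIs), a log2 ratio of −0.29 (−0.48 to −0.10). Dtl, which targets replication factors for destruction, had 153 and 59 UMIs (−0.71, −1.17 to −0.27), and Hells, a chromatin remodeller, 167 and 71 (−0.57, −1.0 to −0.17). Uhrf1 and Usp1 were at 0.06 (−0.27 to 0.39) and 0.09 (−0.23 to 0.41). In other keratinocytes the S list had a median of −0.03.

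**Figure D4:**
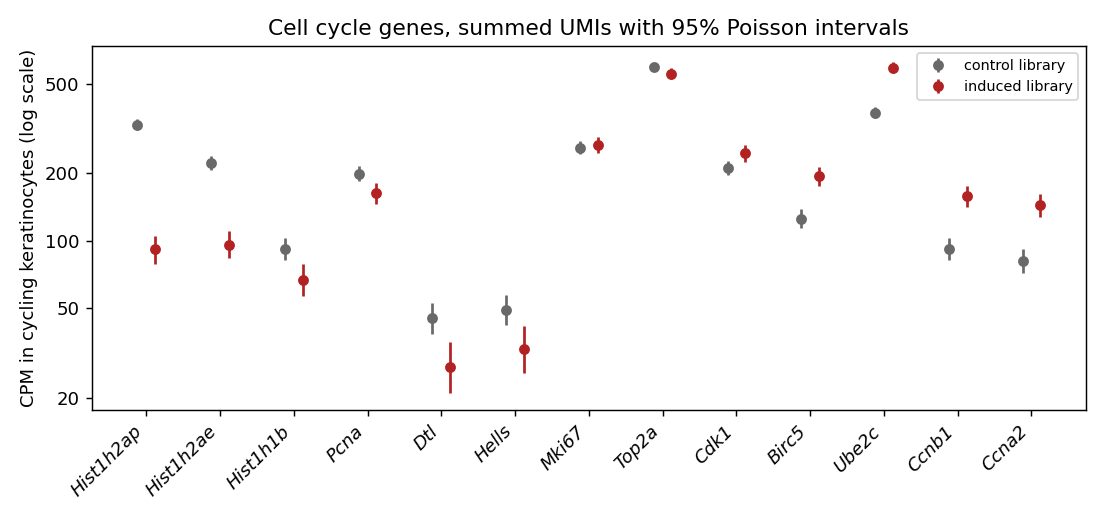
CPM on a log scale (y axis) of cell cycle genes in summed cycling keratinocytes of the control and induced library, with 95% Poisson intervals. Hist1h2ap and Hist1h2ae lie lower in the induced library, Ube2c, Birc5, Ccnb1 and Ccna2 higher, and Mki67 overlaps.

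Chromatin and tubulin genes had a median of 0.07 with 9 of 15 higher, where 46.7% of all genes tested were. Stmn1 was at 0.52 (0.45 to 0.59) and Lmnb1, of the nuclear lamina, at 0.20 (−0.08 to 0.48), while Dek, a chromatin protein, was at −0.26 (−0.38 to −0.15) and Tuba1c, an alpha tubulin, at −0.23 (−0.33 to −0.13). G1 genes had a median of −0.00, with Cdk6, the partner of D cyclins, at −0.44 (−0.83 to −0.06) but at 0.079 (−0.23 to 0.39) with no upper limit on genes, Cdkn1a at −0.32 (−0.44 to −0.20), Cdk4 at 0.16 (−0.06 to 0.37) and Ccnd2 at 0.03 (−0.18 to 0.24). Ccnd2 was at −0.36 (−0.60 to −0.12) without cells that held markers of other cell types, and at 0.29 (0.04 to 0.53) in cells with at least 5 marker UMIs.

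In cycling keratinocytes 1.64% of genes were 2-fold or more higher in the induced library and 1.02% lower. Of the G2 and M genes 1, Plk1, was past 2-fold higher and none lower, and of the S genes none was. Of the histones, 1 was past 2-fold higher (Hist1h2bc) and 2 lower. Plk1, a mitotic kinase with 38 and 49 UMIs, and Hist1h2bc, with 63 and 87, were named after their values were seen.

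A list of 6 direct miR-205 targets was taken from the study's text, which names them as examples. All 6 were lower in induced cycling keratinocytes, where 53.3% of all genes tested were. Their median was −0.24. The study's supplement lists many more bound genes. Those named in this report include Sox4 at 1.34 (1.00 to 1.69), Ccnd2 at 0.03, Cdk6 at −0.44 and Cldn4 at −0.66. Actb, cytoplasmic actin, had 25909 control and 13939 induced UMIs, 7669 and 6514 CPM (−0.24, −0.27 to −0.21). Rock2, the kinase that activates myosin, had 972 and 433 UMIs, 288 and 202 CPM (−0.51, −0.67 to −0.34). The actin crosslinkers Actn1 and Actn4 were at −0.25 (−0.48 to −0.03) and −0.17 (−0.30 to −0.04), and Ctnna1, α-catenin, at −0.18 (−0.36 to −0.01). With no upper limit on genes the intervals of Actn1 (−0.17, −0.37 to 0.02) and Actn4 (−0.10, −0.22 to 0.01) held 0, as did that of Actn1 with at least 5 marker UMIs (−0.12, −0.37 to 0.13) and that of Ctnna1 under 5% mitochondrial UMIs (−0.10, −0.33 to 0.12).

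Piezo1, a stretch-gated channel, had 94 and 46 UMIs in cycling keratinocytes and an interval that holds 0 (−0.36, −0.91 to 0.15). The list of 6 targets had a median of −0.20 in other keratinocytes, with 5 of 6 lower, where 3450 of 7574 genes were. These genes were chosen by the study, and this list is not independent evidence of its direction.

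Of 62 genes of the actin cytoskeleton, 45 were lower (72.6%), where 53.3% of all genes tested were. Among genes with at least 200 UMIs, 59.5% were lower. The median of the actin list was −0.12, and also −0.12 in other keratinocytes. Pdlim5, of the Z-line and stress fibers, was at −0.81 (−1.05 to −0.57) and Zyx, of focal adhesions, at −0.71 (−0.97 to −0.47). Vasp, an actin filament elongator, and Gsn, which severs filaments, were at 0.37 (0.08 to 0.65) and 0.32 (0.22 to 0.41). Gsn was at 0.03 (−0.08 to 0.14) without cells that held markers of other cell types.

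**Figure D5:**
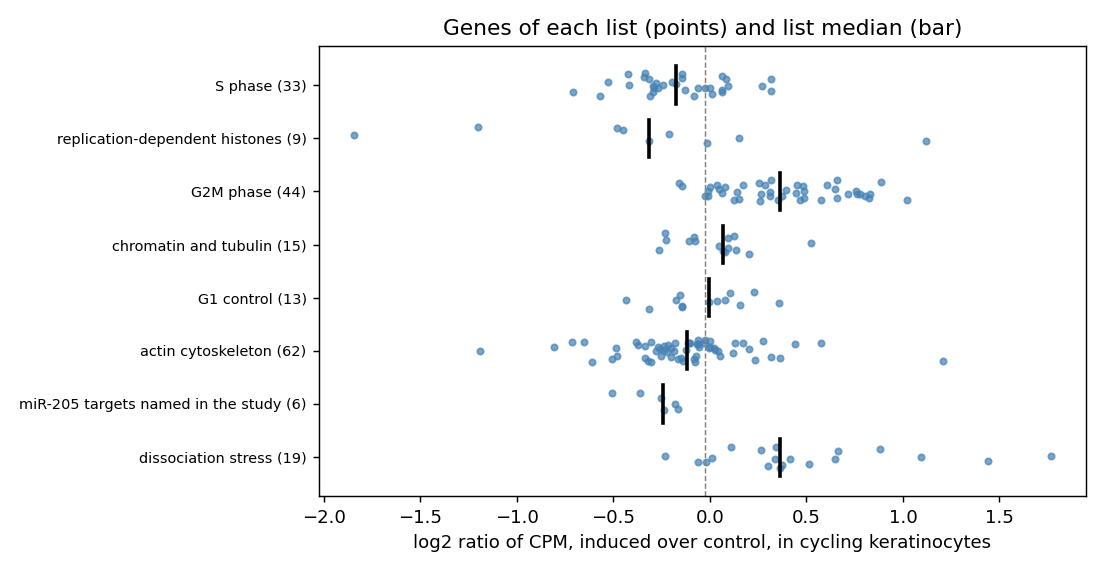
Log2 ratio of CPM, induced over control, in cycling keratinocytes (x axis) for the genes of each list (points, number of genes in parentheses) with the list median (bar). The dashed line is the median of all 7574 genes, at −0.03. The G2 and M bar lies at 0.36 and the S bar at −0.18.

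The single genes that differed most were largely not cell cycle genes. Eva1a, an endosomal and lysosomal membrane protein, had 462 and 30 UMIs (−3.26, −3.87 to −2.75), beside −2.19 in other keratinocytes. Insig1, a brake on sterol synthesis, had 251 and 34 UMIs (−2.21, −2.79 to −1.70), beside −0.54 there. Igfbp3, which binds insulin-like growth factors, and Myadm, a membrane protein, were both at −1.88, beside −0.65 and −2.18. The genes 2310007B03Rik and Trp53i11 were at −1.77 and −1.69, beside −2.16 and −1.13. The 5 highest cells held 44.5% of control and 67.1% of induced Igfbp3 UMIs, and 41.8% and 58.8% of those of Insig1. Igfbp3 was detected in 29.7% of control and 24.8% of induced cycling cells, so its ratio rests on few cells.

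Of genes higher in induced cycling keratinocytes, the interferon-inducible Ifi27l2a had 145 and 652 UMIs (2.82, 2.57 to 3.10), beside 3.00 in other keratinocytes, and Ifi27 was at 1.14 beside 0.69. Sox4, a transcription factor, was at 1.34 (1.00 to 1.69) beside 0.69, Ybx3, an mRNA-binding protein, at 1.20 beside 1.08, and Txnip, an inhibitor of thioredoxin, at 1.18 beside 1.28, or 0.50 (−0.08 to 1.09) under 5% mitochondrial UMIs. Il33, an alarmin cytokine, was at 1.14 (0.75 to 1.54) in cycling and −0.05 (−0.14 to 0.03) in other keratinocytes. It was detected in 25.5% of control and 32.7% of induced cycling cells. The 5 highest cells held 36.8% and 48.1% of Il33 UMIs, and 33.3% and 41.5% of those of Sox4, which the intervals do not take into account.

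The gene model Gm8797 had 107 and 1398 UMIs, and Gm10093 had 289 in control and none in induced cells, at least 61.0-fold lower against 3 counts over the induced cells. Such models can share reads with near-identical copies, and both values are uncertain.

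Genes of the early stress response, which dissociation of tissue induces, moved with the library. Of 19 such genes, 16 were higher in induced cycling keratinocytes, where 46.7% of all genes tested were. Their median was 0.36 beside 0.27 in other keratinocytes. Fos had 2265 and 3057 UMIs (1.09, 1.01 to 1.17) and Atf3 2793 and 3262 (0.88, 0.81 to 0.96), while Jund was at −0.06 and Ier3 at −0.23. The 5 highest cells held 37.1% of control and 41.4% of induced Fos UMIs, and 23.1% and 40.2% of those of Atf3. The intervals do not take this into account. With no upper limit on genes the median was 0.16, Fos was at 0.63 (0.56 to 0.69) and Atf3 at 0.46 (0.39 to 0.52). The part of dissociation in the other differences was not tested.

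Markers of other cell types were found in some cycling keratinocytes. At least 3 UMIs of any such list were held by 16 control (9.70%) and 16 induced cells (15.8%), beside 6.09% and 6.66% of other keratinocytes. The antigen-presenting list accounted for 6 and 13 cells and the fibroblast list for 7 and 2. In the induced library 1 cell held 2067 of the 2103 fibroblast UMIs. All 5 fibroblast genes tested, with a median log2 ratio of 5.04, were among the genes 2-fold or more higher. So were the 2 antigen-presenting genes tested, with a median of 2.47. Endothelial, melanocyte, Schwann and erythroid lists were met by none. The result on the G2 and M, S and histone lists kept its direction without these cells, at median log2 ratios of 0.45, −0.22 and −0.42.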

How the data were processed

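Dissociated back skin of 1 control and 1 induced mouse was sequenced as 1 library each. The authors used Cell Ranger (header 3.0.1) and mm10 to count UMIs of each gene in each barcode and deposited whole-number counts without normalization. Which gene annotation they used was not stated in the sources read. Samples were grouped by their labels.

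Cells with more than 200 and fewer than 5000 genes and under 10% mitochondrial UMIs were kept, which is the filter the study states. Doublets were not removed. Cycling keratinocytes were chosen by the rule given in the report. The cells and all gene lists were chosen with earlier results of these data known. UMIs were summed over cells per library and divided by the sum over all genes (CPM). Log2 ratios used a pseudocount of 0.5 UMIs and genes with at least 50 UMIs over cycling keratinocytes of both libraries. Ratios carry exact conditional binomial intervals, CPM exact Poisson intervals, shares exact Clopper-Pearson intervals and differences of shares Newcombe intervals. For measures per cell, each cell was thinned to 5000 UMIs at random, which left out 4 induced cycling cells with fewer. Beside a share of 0 stands the limit set by 3 counts. No test was run, since each group is 1 library.

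Named genes were the markers of the rule, the 6 targets, Mki67, Pcna, Ccnb1, Ccna2 and compartment markers. To these were added, among genes with at least 200 UMIs, the 2 highest and 2 lowest of each program list, the 8 highest and 8 lowest induced over control, and the 12 highest and 8 lowest over other keratinocytes. Mitochondrial, ribosomal, haemoglobin, sex-linked and marker genes, and genes with over 50% of their UMIs in 5 cells, were left out of these rankings. For induced over control the 50% limit was set only on the library with the higher value. For cycling over other keratinocytes it was set on both libraries. Promoter and microRNA sequences are from RefSeq (GRCm38.p6), with the first listed promoter of each gene.

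On counts simulated over 7574 genes for induced over control, 100% of 200 changed genes had the right sign, 95.4% of intervals held the true value and 0.271% of unchanged genes passed 2-fold. The simulation had Poisson noise only. Alternatives were other thresholds of the rule and filter, other scalings and pseudocounts, other gene minimums, thinning, and leaving out cells with markers of other cell types. Python 3.11.15, numpy 2.4.6, scipy 1.17.1, pandas 2.3.3 and matplotlib 3.10.9 were used.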

Additional observations from a re-analysis of the deposited data

Results flagged for a closer look

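Data outside the comparisons held dividing cells. Among keratinocyte barcodes left out at 5000 genes or more, 22 of 45 induced (48.9%, 33.7 to 64.2) and 17 of 37 control barcodes (45.9%, 29.5 to 63.1) held at least 3 UMIs of the marker genes. Among kept cells with under 20 Krt5 and Krt14 UMIs, 13 of 946 induced (1.37%, 0.734 to 2.34) and 7 of 750 control cells (0.933%, 0.376 to 1.91) did. Both shares were higher in the induced library, and all of these intervals overlap.

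For 8 of the 80 named genes the induced over control ratio had opposite signs in cycling and other keratinocytes with both intervals off 0. These opposite signs come from 1 library a group, and the difference between the cell groups was not tested. Actn1 was at −0.25 in cycling and 0.23 in other keratinocytes, but its interval in cycling cells held 0 with at least 5 marker UMIs (−0.12, −0.37 to 0.13) and with no upper limit on genes (−0.17, −0.37 to 0.02). Cdk1, a gene of the rule, was at 0.22 and −0.92, the second from 44 and 20 UMIs, and its interval in cycling cells held 0 under 5% mitochondrial UMIs (0.21, −0.02 to 0.42). Cyr61, a matricellular YAP target, was at 0.21 and −0.12, and at 0.0092 (−0.08 to 0.10) in cycling cells when CPM was averaged over cells. Ier3, an early response gene, was at −0.23 and 0.13. Vasp was at 0.37 and −0.29, and at 0.25 (−0.002 to 0.50) in cycling cells with no upper limit on genes. Mir205hg (4631405K08Rik) was at −0.56 and 0.14, and its interval in cycling cells held 0 with at least 5 marker UMIs and under 5% mitochondrial UMIs. Krt14 was at 0.17 and −0.32, and Krt5 at 0.28 and −0.04. Both keratins are also genes of the rule. Other keratinocytes were limited to under 3 marker UMIs, Cdk1 included. The opposite signs of Cdk1, Krt14 and Krt5 are therefore a description only.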

How the results depend on the processing

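No paired analysis was possible because each group has 1 library. Every alternative for the difference of shares kept its sign, from −1.70 to −0.71 points, though its interval held 0 under 5% mitochondrial UMIs (−2.35 to 0.98) and with no upper limit on genes (−2.27 to 0.01). The same sign was kept by the difference in histone-positive cells, from −26.9 to −19.9 points. The median of the G2 and M list stayed between 0.31 and 0.45 and that of the targets between −0.35 and −0.21. The share of cycling keratinocytes was 6.81% in control and 5.11% in induced with at least 2 marker UMIs, 4.17% and 2.95% with at least 5, and 3.60% and 2.60% after thinning. Under 5% mitochondrial UMIs the number fell to 81 control and 56 induced cells, and the S list median to −0.36. Without an upper limit on genes the chromatin and tubulin median was 0.13. That setting changed the sign of Krt10 (−0.47), Sbsn (−0.20), Defb1 (−0.23) and Cdk6 (0.079), and at least 5 marker UMIs that of Sbsn (−0.13) and Defb1 (−0.35). The causes were not tested. Of 80 named genes, 38 stayed within the interval reported under all 8 alternatives. The scalings tried put the median of all genes between −0.05 and −0.00. With 165 and 101 cells, genes under 50 UMIs were not compared, and no setting stands in for a second mouse.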

Other observations

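YAP is a coactivator that responds to cell stretch. A list of its response genes, Tead1 included, had a median log2 ratio, induced over control, of 0.31 over 8 genes in cycling keratinocytes. In other keratinocytes the median was 0.03. In cycling cells the 8 genes ran from −0.81 to 2.44, and 3 were lower, where 53.3% of all genes tested were. Axl, a receptor tyrosine kinase, had 109 and 116 UMIs (0.75, 0.36 to 1.14), beside 0.10 (−0.02 to 0.22) in other keratinocytes. Tead1, the DNA-binding partner of YAP, was at −0.08 (−0.32 to 0.16) and Crim1 at −0.09 (−0.38 to 0.19). Of 10 genes of the WNT response only 3 had 50 UMIs, and their median was −0.15 beside 0.13 in other keratinocytes.

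The keratins used to choose keratinocytes also differed. Krt14 was at 10918 CPM in control and 12307 CPM in induced cycling keratinocytes, a log2 ratio of 0.17 (0.15 to 0.20), beside −0.32 (−0.33 to −0.31) in other keratinocytes. Krt5 was at 0.28 (0.25 to 0.32) beside −0.04 (−0.05 to −0.03). These 2 genes were named after their values were seen, and the difference between the cell groups was not tested.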
